A study of Mus musculus with 24 samples.

Results

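The genes described here are 10 members of the Notch pathway among the 55341 genes of the count table: the receptors Notch1, Notch2, Notch3 and Notch4, the ligands Jag1, Jag2 and Dll1, the fringe enzyme Lfng, and the target genes Hes1 and Hey1. They were chosen by name, from a list drawn up with results of these data known and with no record of which values led to it. Counts of members past the threshold are therefore descriptions, set beside the share of all tested genes past the same threshold, and are no independent evidence. Of the 10 genes, 8 had reads and passed the low-count filter, and Dll1 and Hey1 had 0 counts in all 24 libraries. Member counts below are given out of 10, though only these 8 could be called, while the shares are of tested genes.

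The libraries hold total RNA, depleted of ribosomal RNA, from 3134 cells, a mouse mammary adenocarcinoma line. All cells carried an IPTG-inducible short hairpin RNA against NIPBL, which together with MAU2 puts cohesin rings on chromatin, and 1 piggyBac construct, either empty or carrying wild-type NIPBL or a mutant form called C1, C2 or C1-C2, whose changes the labels do not give. Cells were kept for 3 days in charcoal-stripped serum, which is poor in steroids, and received ethanol or 100 nM of the glucocorticoid receptor ligand dexamethasone for the last 2 hours. The 12 groups of 2 libraries were, in each of these 2 treatments, empty vector without IPTG, and empty vector, wild-type NIPBL, C1, C2 and C1-C2 with 1 mM IPTG. Each construct was measured in 1 line, and the labels do not say whether a line is a clone. No group had IPTG without the hairpin, so loss of NIPBL and other effects of IPTG or the hairpin cannot be told apart. The labels number the ethanol and the dexamethasone libraries in separate blocks of library names, so a difference between those blocks and the effect of dexamethasone cannot be told apart.

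In Notch signalling a ligand of the Jagged or Delta-like family on a neighbouring cell pulls on a Notch receptor, proteases release the intracellular part of the receptor, and this part joins the DNA-binding protein RBPJ in the nucleus to switch on targets such as Hes1 and Hey1. LFNG is a sugar transferase of the Golgi that extends O-fucose on the extracellular part of the receptors and shifts their response between Jagged and Delta-like ligands. In the mammary gland the pathway is known for its part in luminal cell fate, and its receptors are studied as oncogenes in mouse mammary tumours.

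The libraries held 32532858 to 42711188 counts in ethanol and 45038685 to 72857880 in dexamethasone. Levels are given as CPM, which are counts relative to the library's total after TMM scaling. Nipbl, the targeted gene, was at 151 to 186 CPM in the 4 uninduced libraries and at 48.0 to 73.3 CPM in the 20 that received IPTG. Mean Nipbl in ethanol and dexamethasone was 66.5 and 60.6 CPM with wild-type NIPBL, and 63.8 and 55.5 CPM in empty vector with IPTG. The mutants had means of 50.5 to 64.8 CPM. Whether reads of the constructs would be counted as Nipbl was not tested, so these levels do not show whether a construct was expressed. Of the epithelial markers, Epcam was at 0 and Krt8, Krt18, Krt19 and Cdh1 were at most 0.767 CPM. Of the basal and mesenchymal markers, the keratin Krt14 was at 13.4 to 21.8 CPM, Vim at 3328 to 4458 CPM, Fn1 at 1087 to 3297 CPM and Cdh2 at 147 to 174 CPM, while Krt5 and Acta2 were at most 0.0551 CPM. Endothelial markers, of interest because Notch4 is best known from vessels, were at most 0.181 CPM for Pecam1, 0.294 CPM for Cdh5 and 0.0233 CPM for Kdr. For 1 library, C1-C2 in ethanol, replicate 2, the treatment label reads dexamethasone, against its title. Its level of Per1, a gene induced by glucocorticoids, was 24.4 CPM beside 22.2 to 26.6 CPM in the other ethanol libraries and 269 to 308 CPM in dexamethasone, and it was kept with the ethanol group.

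Per kilobase of exon, Notch2 had the highest level of the 10 genes, with a median over the 24 libraries of 19.2 CPM per kb. It was followed by Lfng at 7.93, Notch1 at 6.06, Jag1 at 3.66, Notch3 at 2.34, Hes1 at 1.32, Notch4 at 0.457 and Jag2 at 0.196 CPM per kb. These medians pool both treatments, and the order differed between them. Hes1 was at 1.97 and Notch4 at 0.222 in ethanol, and at 0.894 and 1.09 in dexamethasone. Notch1 (6.39) and Lfng (6.32) were nearly level in ethanol. The cells held the RNA of all 4 receptors, with Notch2 and Notch1 the most abundant among them, and, among the 3 ligands listed here, more of Jag1 than of Jag2, with Dll1 at 0. The 0 counts of Dll1 and Hey1 allow a level of up to 3 counts, which is 0.0419 to 0.0900 CPM in these libraries. Over the 12 groups the range of log2 mean CPM was widest for Notch4, at 3.30, and narrowest for Notch1 and Notch2, at 0.49 and 0.50. The plot of levels by construct and treatment shows every library of the 8 genes.

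In the mm10 annotation of GENCODE vM21 the receptors lie at chr2:26457903-26516663 (Notch1), chr3:98013527-98150361 (Notch2), chr17:32120820-32166852 (Notch3) and chr17:34564268-34588503 (Notch4). The ligands lie at chr2:137081456-137116644 (Jag1), chr12:112907819-112929776 (Jag2) and chr17:15367354-15376872 (Dll1), Lfng at chr5:140607320-140615545, and the targets at chr16:30064384-30067796 (Hes1) and chr3:8663359-8667256 (Hey1). Exons of Notch1 share 1068 bases with 0610009E02Rik and 414 with Gm13568 on the opposite strand, those of Notch3 share 488 with Gm17276 on the opposite strand, and those of Notch2 share 541 with Gm42820 on the same strand. These neighbours had at most 137 counts in any library, against at least 420 for Notch3, 2340 for Notch1 and 6208 for Notch2, and whether reads moved between them was not tested.

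**Figure D1:**
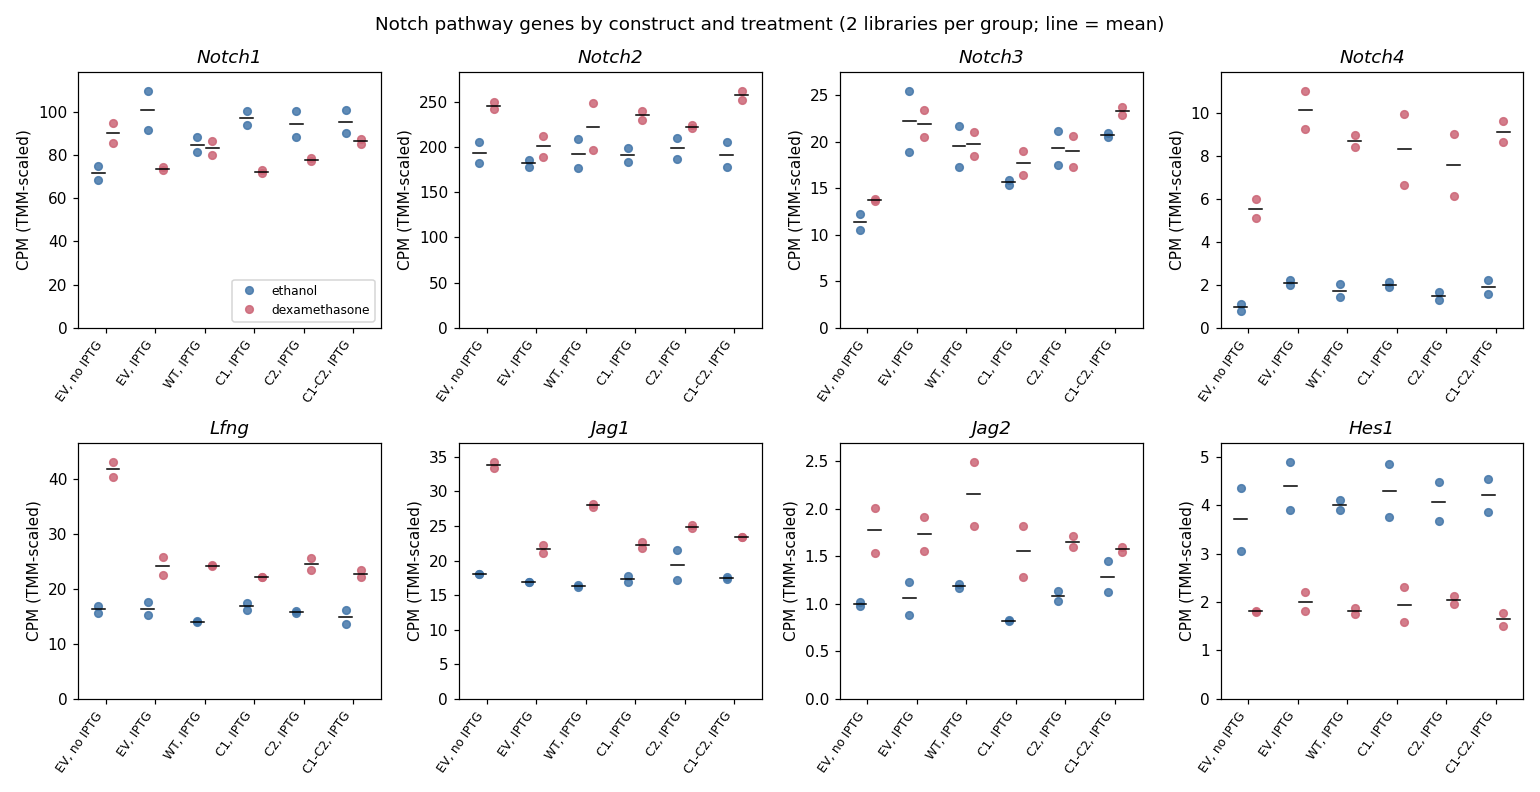
CPM (vertical axis, from 0, TMM-scaled) of the 8 detected genes in each library, by construct and IPTG (horizontal axis) and treatment (blue, ethanol; red, dexamethasone), with a line at the mean of the 2 libraries of a group. Lfng in dexamethasone stands at 40.4 and 43.0 CPM without IPTG and at 22.1 to 25.7 CPM in the 10 libraries with IPTG, and Notch4 in dexamethasone is above every ethanol library.

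The promoter stretches of Lfng, Jag1 and Notch4 are shown because these 3 genes had the largest increases with dexamethasone in cells without IPTG, and the increases of Lfng and Jag1 were smaller after the knockdown (values below). They are the RefSeq sequences of build GRCm38.p6 that lie before the first annotated exon, 5' to 3' on the gene's strand. The capitals in Lfng mark a match to the RBPJ site GTGGGAA at positions -109 to -103, counted with the RefSeq start at 0.
Lfng (chr5:140607091-140607319, plus strand): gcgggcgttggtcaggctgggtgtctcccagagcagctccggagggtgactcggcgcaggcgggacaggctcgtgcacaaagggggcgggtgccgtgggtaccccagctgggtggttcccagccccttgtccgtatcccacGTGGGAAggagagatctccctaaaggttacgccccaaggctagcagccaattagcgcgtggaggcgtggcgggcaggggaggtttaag
Jag1 (chr2:137116645-137116770, minus strand): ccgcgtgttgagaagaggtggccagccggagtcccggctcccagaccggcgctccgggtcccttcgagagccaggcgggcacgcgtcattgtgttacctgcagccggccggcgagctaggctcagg
Notch4 (chr17:34564045-34564267, plus strand): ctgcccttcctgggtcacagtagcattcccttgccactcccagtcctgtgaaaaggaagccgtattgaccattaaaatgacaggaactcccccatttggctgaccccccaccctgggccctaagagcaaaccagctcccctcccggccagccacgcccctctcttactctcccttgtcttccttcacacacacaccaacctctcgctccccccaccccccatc
Among the 8 members with a RefSeq promoter window of 300 bases (250 before and 50 after the start), the RBPJ site, searched on both strands, was found in Lfng only, and it is in 6.38% of the 32851 windows of all genes. The half-site of the glucocorticoid receptor, AGAACA, was in the windows of Dll1 alone among members and in 19% of all windows. The AP-1 site TGANTCA, in 7.81% of all windows, overlaps the start of Notch4 at positions -4 to 2 and also occurs in a window of Dll1. These matches are letters in a window and were not tested for binding. The Lfng, Notch4 and Jag1 windows held 66.7%, 58.3% and 55.7% G and C, against a median of 52.7% over all windows.

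The first comparison asked how the knockdown changed these genes in cells without hormone. With IPTG, 3 of the 10 genes were higher and none was lower (edgeR quasi-likelihood test, adjusted p under 0.05), all of them receptors, beside 13.4% of all 16934 tested genes called in either direction, 7.16% higher and 6.24% lower. RNA was measured in bulk, so fewer cells with a transcript and less of it in each cell cannot be told apart. The median log2 change of the 8 tested members was 0.16, and that of all tested genes -0.01. Notch3, a receptor of vascular smooth muscle and of tumours, was at 10.6 and 12.3 CPM without IPTG and at 18.9 and 25.5 CPM with IPTG. The libraries of the 2 groups did not overlap, and Notch3 rose 1.95-fold (log2 0.96, SE 0.15, adjusted p = 0.000239). Notch1, the receptor most studied in leukaemia and mammary tumours, was at 75 and 68.3 CPM without IPTG and at 91.7 and 109.8 CPM with it. It rose 1.40-fold (log2 0.49, SE 0.08, adjusted p = 0.000208), again with no overlap.

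Notch4 was a low-level gene in ethanol, with 27 and 47 counts (0.788 and 1.10 CPM) in uninduced cells and 67 and 87 counts (2.01 and 2.2 CPM) with IPTG. It rose 2.2-fold (log2 1.14, SE 0.31, adjusted p = 0.0173). That call was lost on leaving out any of 3 of the 4 libraries, up to an adjusted p of 0.128 without replicate 2 of the group without IPTG. Notch2, the most abundant receptor, was at 182 and 205 CPM without IPTG and 178 and 186 CPM with it, and its log2 difference of -0.09 (95% interval -0.32 to 0.14) was within the spread of the libraries.

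Lfng and the ligands showed no called change in ethanol. Lfng was at 15.6 and 17 CPM without IPTG and at 15.2 and 17.6 CPM with it, a log2 difference of 0.01 (95% interval -0.17 to 0.19). Jag1 was at 18.0 and 18.1 CPM without IPTG and at 16.9 CPM in both libraries with it, a log2 difference of -0.09 (95% interval -0.26 to 0.07). Jag2 (0.07) and Hes1 (0.25) were not called either.

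In dexamethasone, 5 of the 10 genes were called with the knockdown, 2 higher and 3 lower, where 16.9% of all tested genes were called, 8.36% higher and 8.49% lower. The median log2 change was -0.17 over the members and 0.00 over all tested genes. The higher genes were the receptors Notch3 and Notch4, and the lower ones Notch1, Lfng and Jag1. Lfng was at 40.4 and 43.0 CPM without IPTG and at 22.6 and 25.7 CPM with it. Neither library with IPTG came near those without, and the level was 1.73-fold lower (log2 -0.79, SE 0.08, adjusted p = 1.01e-07). Jag1, a ligand of the Jagged family, was at 33.4 and 34.2 CPM without IPTG and at 21.0 and 22.2 CPM with it, 1.56-fold lower (log2 -0.64, SE 0.07, adjusted p = 4.21e-07). For these 2 genes the call held with any 1 of the 4 libraries left out.

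Notch3 was again higher with IPTG, at 20.5 and 23.4 CPM against 13.8 and 13.6 CPM (log2 0.68, SE 0.14, adjusted p = 0.00226). Notch4 was at 9.25 and 11 CPM with IPTG and at 5.14 and 5.98 CPM without it (log2 0.86, SE 0.20, adjusted p = 0.00419), a call that was lost on leaving out either of 2 of the 4 libraries, with a largest adjusted p of 0.0666. Notch1 went the other way than in ethanol. It was at 74.4 and 73.1 CPM with IPTG against 85.8 and 94.7 CPM without it (log2 -0.29, SE 0.08, adjusted p = 0.0133), and this call was lost with any of 3 libraries left out, up to an adjusted p of 0.159 without replicate 2 of the group without IPTG. Notch2 had the same log2 difference of -0.29 with a wider interval (-0.52 to -0.07) and an adjusted p of 0.0738. It was called at about the same size without the low-count filter (adjusted p = 0.000172), with a replicate block (0.00419, or 0.00554 within treatments), in a fit of only the libraries compared (0.00489) and with DESeq2 (0.0103). With RLE factors, a strict filter of 5 CPM or the GC and length trend removed (-0.27, adjusted p = 0.0524) Notch2 was not called. Jag2 (-0.04) and Hes1 (0.15) were not called. The plot of knockdown changes sets both treatments side by side.

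**Figure D2:**
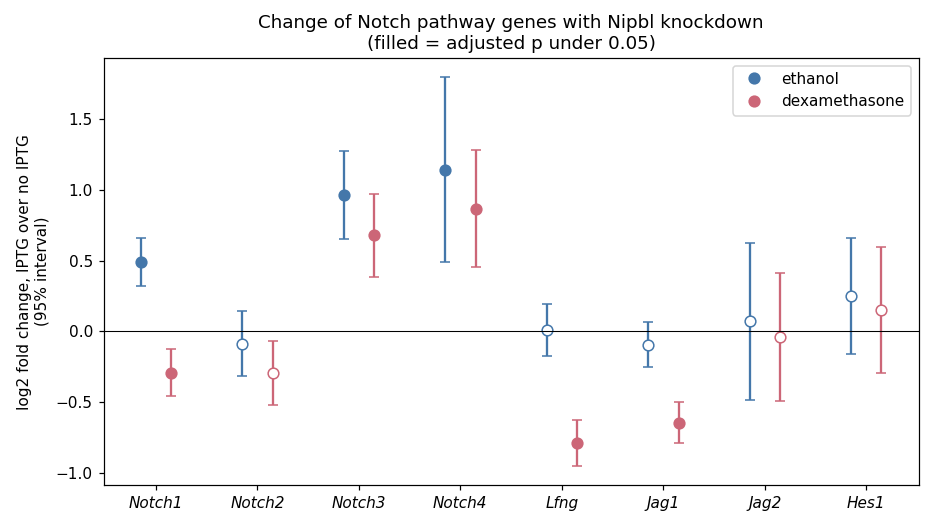
Log2 fold change with IPTG over without IPTG in empty-vector cells (vertical axis) for the 8 tested genes, in ethanol (blue) and dexamethasone (red), with 95% intervals and filled points at an adjusted p under 0.05. Notch3 and Notch4 are above 0 in both treatments, Notch1 is at 0.49 in ethanol and -0.29 in dexamethasone, and Lfng and Jag1 are near 0 in ethanol and at -0.79 and -0.64 in dexamethasone.

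The next question was what dexamethasone did to these genes in 2 hours. In cells with intact NIPBL (empty vector without IPTG) 7 of the 10 genes were called, 6 higher and 1 lower. Of all tested genes 38% were called, 19.8% higher and 18.2% lower. The median log2 response was 0.59 over the members and 0.01 over all tested genes. Notch4 had the largest increase. It was at 0.788 and 1.10 CPM in ethanol and at 5.14 and 5.98 CPM in dexamethasone, 5.82-fold higher (log2 2.54, SE 0.27, adjusted p = 2.54e-07). Lfng went from 15.6 and 17 CPM to 40.4 and 43.0 CPM, a 2.57-fold increase (log2 1.36, SE 0.08, adjusted p = 1.75e-12), and Jag1 from 18.0 and 18.1 CPM to 33.4 and 34.2 CPM, a 1.88-fold increase (log2 0.91, SE 0.07, adjusted p = 3.57e-10). In each of these 3 genes the lowest dexamethasone library was far above the highest ethanol library.

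Hes1, a transcriptional repressor and the classical Notch target, was the 1 member that fell. It was at 3.06 and 4.35 CPM in ethanol and at 1.82 and 1.79 CPM in dexamethasone (log2 -1.02, SE 0.21, adjusted p = 0.000346). The fall was seen with every construct. Over all 12 libraries of each treatment, Hes1 was at 3.06 to 4.89 CPM in ethanol, with a median of 4.0, and at 1.51 to 2.32 CPM in dexamethasone, with a median of 1.82, so the treatments did not overlap in any library.

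Smaller increases were called for Jag2 (log2 0.83, SE 0.24, adjusted p = 0.00787), Notch2 (0.34, SE 0.11, adjusted p = 0.0177) and Notch1 (0.33, SE 0.08, adjusted p = 0.00203). A trend with base composition moved with the treatment: relative to the mean of all libraries, genes in the highest quartile of GC content minus those in the lowest gave a log2 difference of -0.26 to -0.16 in the ethanol libraries and of 0.10 to 0.28 in dexamethasone. Several members are rich in G and C, among them Jag2 (61.9%), Notch4 (61.2%), Notch3 (59.6%), Lfng (58.8%) and Notch1 (57.1%), while Jag1 (48.8%) and Hes1 (50.7%) are near the middle of all genes. With this trend and one with gene length removed, Notch1 (0.08, adjusted p = 0.421), Notch2 (0.17, adjusted p = 0.239) and Jag2 (0.55, adjusted p = 0.103) were no longer called. Notch4 (2.26), Lfng (1.09), Jag1 (0.87) and Hes1 (-1.13) were called as before. The plot of responses with and without the trend shows both values for each gene.

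**Figure D3:**
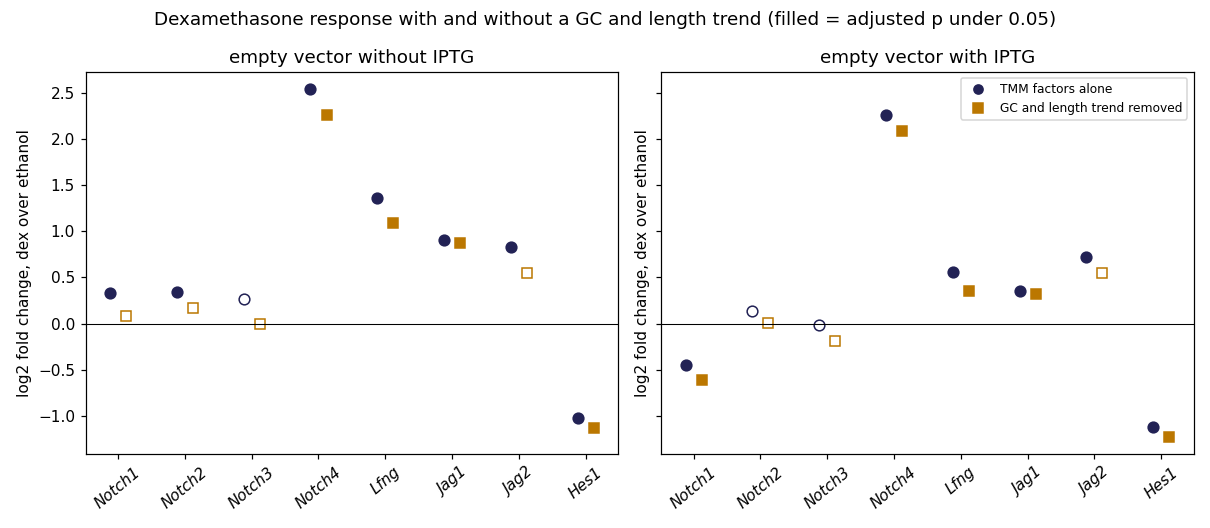
Log2 fold change of dexamethasone over ethanol (vertical axis) for the 8 tested genes in empty-vector cells without IPTG (left) and with IPTG (right), with TMM factors alone (circles) and with a trend over GC content and length removed (squares), filled at an adjusted p under 0.05. Without IPTG the calls of Notch1, Notch2 and Jag2 are lost with the trend removed, and those of Notch4, Lfng, Jag1 and Hes1 are kept.

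After the knockdown (empty vector with IPTG) 6 of the 10 genes were called, 4 higher and 2 lower, against 32.5% of all tested genes, 17.1% higher and 15.4% lower. Notch4 went from 2.01 and 2.2 CPM to 9.25 and 11 CPM (log2 2.26, SE 0.23) and Hes1 from 3.90 and 4.89 CPM to 1.82 and 2.2 CPM (log2 -1.12, SE 0.20). Lfng went from 15.2 and 17.6 CPM to 22.6 and 25.7 CPM (log2 0.56, SE 0.09), and Jag1 from 16.9 CPM in both libraries to 21.0 and 22.2 CPM (log2 0.36, SE 0.07). Notch1 went down with the hormone here, from 91.7 and 109.8 CPM to 74.4 and 73.1 CPM (log2 -0.45, SE 0.08, adjusted p = 0.000135). With the trend removed the Lfng response was 0.36 (adjusted p = 0.00218). Jag2 was called at 0.72 (adjusted p = 0.0237), and lost the call with the trend removed (0.55, adjusted p = 0.113). Both empty-vector responses and the 2 knockdown comparisons rest on the same 8 libraries.

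Whether the response itself differed with the knockdown was tested as the difference of the 2 responses. Such differences were rare: 29 of the 16934 tested genes, or 0.171%, were called, 26 (0.154%) with a lower response after the knockdown and 3 (0.0177%) with a higher one. Lfng, Notch1 and Jag1, 3 of the 10 members, were among those with a lower response. The log2 response with IPTG minus that without was -0.80 for Lfng (95% interval -1.04 to -0.55, adjusted p = 0.00231), -0.78 for Notch1 (-1.02 to -0.55, adjusted p = 0.00233) and -0.55 for Jag1 (-0.77 to -0.33, adjusted p = 0.0166). For Lfng and Jag1 this was a smaller increase, and for Notch1 an increase without IPTG, which was not called with the trend removed (0.08), and a decrease with it (-0.61 with the trend removed). The calls of Lfng and Notch1 held with any 1 of the 8 libraries left out, while the call of Jag1 was lost with each of them left out, at a difference of -0.59 to -0.51 and an adjusted p of up to 0.126 without replicate 1 of empty vector with IPTG in dexamethasone. With the GC and length trend removed all 3 were called (-0.73, -0.70 and -0.55).

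The other 5 tested members gave no called difference of responses. That of Notch4 was -0.28 with a 95% interval of -1.06 to 0.50, that of Hes1 -0.10 (-0.71 to 0.50) and that of Jag2 -0.11 (-0.82 to 0.61). The intervals of Notch2 (-0.53 to 0.12) and Notch3 (-0.71 to 0.15) were narrower and also held 0. All but that of Notch2 are wide enough to hold a change as large as that of Jag1.

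The constructs ask whether wild-type NIPBL, or a mutant, restores what the hairpin removes. For Jag1 in dexamethasone the libraries with wild-type NIPBL, at 27.7 and 28.2 CPM, lay between those of empty vector without IPTG (33.4 and 34.2 CPM) and with IPTG (21.0 and 22.2 CPM). In a comparison added after values were seen, wild-type NIPBL was 1.29-fold above empty vector with IPTG (log2 0.37, SE 0.07, adjusted p = 0.0032). Jag1 was the only member called in that comparison, where 4.2% of all tested genes were. The call was lost without replicate 1 of empty vector with IPTG (adjusted p = 0.0654). With C1 (21.8 and 22.7 CPM), C2 (25.2 and 24.7 CPM) and C1-C2 (23.4 CPM in both libraries) no member was called against empty vector with IPTG in dexamethasone. In these comparisons, also added after values were seen, 0.537%, 0.644% and 0.1% of all tested genes were called. At an unadjusted p under 0.05, 2 members passed in each of these 3 comparisons. Notch2 with C1-C2 was at 262 and 252 CPM, against 213 and 189 CPM in empty vector with IPTG. That difference (log2 0.35 to 0.36) was called without the low-count filter (adjusted p = 0.000133), with only the libraries compared (0.000946) and with DESeq2 (0.0252). Replicate blocks also called it (0.0167, or 0.0231 within treatments), while RLE factors and the GC and length trend's removal did not.

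Lfng did not follow the same order. Wild-type NIPBL in dexamethasone had 24.4 and 24.1 CPM of Lfng against 22.6 and 25.7 CPM in empty vector with IPTG, a log2 difference of 0.00 (95% interval -0.16 to 0.17). All 10 libraries with IPTG were at 22.1 to 25.7 CPM, and both without IPTG were at 40.4 and 43.0 CPM. In the order of the 12 group means of Lfng, empty vector without IPTG in dexamethasone was first with no overlap with the next, and each of the other 5 dexamethasone groups overlapped the next of them. The 6 ethanol groups followed with no overlap, at 13.7 to 17.6 CPM, each overlapping the next.

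The dexamethasone response of each construct was called for Notch4 (log2 2.04 to 2.36 over wild-type NIPBL, C1, C2 and C1-C2), Lfng (0.40 to 0.79), Jag1 (0.35 to 0.78) and Hes1 (-1.35 to -0.99). In all, 5 of the 10 members were called with wild-type NIPBL, 7 with C1, 5 with C2 and 5 with C1-C2, against 28.5%, 32.2%, 32.5% and 32.3% of all tested genes. The Jag1 response was 0.91 without IPTG, 0.78 with wild-type NIPBL, and 0.36, 0.35, 0.36 and 0.42 with empty vector, C1, C2 and C1-C2. Responses of Notch1 were -0.03 with wild-type NIPBL and -0.14 with C1-C2, neither called, and -0.42 (C1) and -0.28 (C2), both called. The call in C2 was lost on leaving out either of 2 libraries, with an adjusted p of up to 0.14. With the GC and length trend removed, Notch1 was called with C1-C2 (-0.34, adjusted p = 0.000364), as it was in a fit of only the libraries compared (-0.15, adjusted p = 0.0229), and was not called with wild-type NIPBL (-0.17, adjusted p = 0.068). The trend's removal moved the Notch1 response with C2 to -0.43 and the Lfng response to 0.24 with C1 and 0.42 with C2, all called. The plot of responses by construct sets these values side by side.

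**Figure D4:**
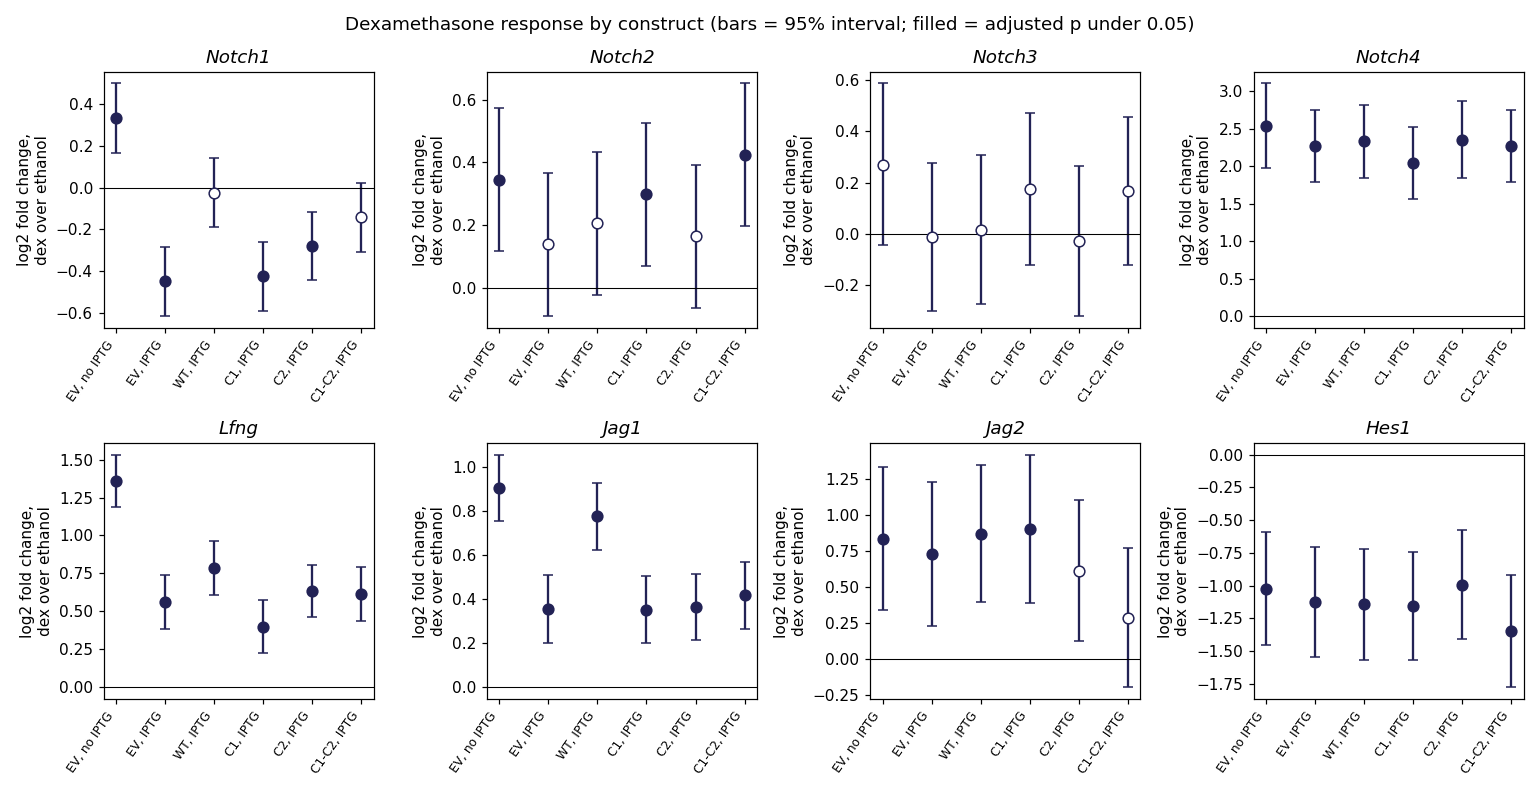
Log2 fold change of dexamethasone over ethanol (vertical axis) for the 8 tested genes by construct and IPTG (horizontal axis), with 95% intervals and filled points at an adjusted p under 0.05. Notch4 lies at 2.04 to 2.54 and Hes1 at -1.35 to -0.99 with every construct, Lfng is highest without IPTG at 1.36, and Jag1 is at 0.91 without IPTG, 0.78 with wild-type NIPBL and 0.35 to 0.42 in the other 4.

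Differences between the responses of the constructs were tested too. Against empty vector with IPTG, the Jag1 response was 0.42 higher with wild-type NIPBL (95% interval 0.20 to 0.64) and the Notch1 response 0.42 higher (0.19 to 0.66), with adjusted p of 0.845 and 1. The Jag1 response minus that with wild-type NIPBL was -0.42 with C1 (-0.64 to -0.21), -0.41 with C2 (-0.63 to -0.20) and -0.36 with C1-C2 (-0.57 to -0.14), with adjusted p of 0.757, 0.512 and 1. None of the members was called in these 4 comparisons, where 0.0118%, 0.0118%, 0.00591% and 0% of all tested genes were, and at an unadjusted p under 0.05 the count of members was 2, 3, 2 and 1. A difference of Jag1 between wild-type and mutant NIPBL was not detectable at the threshold over all genes. Its intervals do not reach 0, but they are not adjusted for the number of genes. They also share the libraries of wild-type NIPBL, so they are not independent of each other.

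Set against the response of empty vector without IPTG, in comparisons added after values were seen, the responses of Lfng, Notch1 and Jag1 were lower with C1 (-0.96, -0.76 and -0.55) and C2 (-0.73, -0.61 and -0.54), and those of Lfng and Jag1 with C1-C2 (-0.75 and -0.49). The shares of all tested genes called were 0.218%, 0.13% and 0.183%. Notch1 with C1-C2 was not called, though its difference was about as large as that of Jag1. It was called without the low-count filter (-0.49, adjusted p = 3.45e-05), with only the libraries compared (-0.48, 0.0244) and with DESeq2 (-0.49, 0.00931). Replicate blocks and the GC and length trend's removal did not call it. With wild-type NIPBL no member was called, and no other gene was (0% of all tested genes). The difference of Lfng there was -0.58 (95% interval -0.82 to -0.33, adjusted p = 0.101), that of Notch1 -0.36 (-0.59 to -0.12) and that of Jag1 -0.13 (-0.34 to 0.08), and 2 members passed at an unadjusted p under 0.05. Without the low-count filter Lfng (-0.60, adjusted p = 0.000195) and Notch1 (-0.38, 0.0136) were called. Lfng was also called with replicate blocks (-0.57, 0.0037, or 0.00491 within treatments) and with DESeq2 (-0.59, 0.0124), but not with the GC and length trend removed. All of these comparisons use the same 4 libraries without IPTG, as does the difference with the knockdown. With C1 the calls of Lfng and Notch1 held with any 1 of the 8 libraries left out, and that of Jag1 was lost in 5 of the 8 fits (adjusted p up to 0.12). With C2, Lfng lost the call in 1 of the 8 fits (adjusted p = 0.0637, without replicate 1 of empty vector without IPTG in ethanol), Notch1 in 5 (up to 0.143) and Jag1 in 6 (up to 0.171). Without that same library of empty vector none of the 3 was called. With C1-C2, Lfng lost the call in 1 fit, the one without the library whose labels disagree (-0.63, adjusted p = 0.0552), and Jag1 in all 8 (up to 0.235) and with the trend removed (-0.48, adjusted p = 0.0733).

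In the planned comparisons averaged over both treatments, at most 1 of the 10 members was called for any construct against empty vector with IPTG. With wild-type NIPBL 0 of the 10 members were called (8.65% of all tested genes), with Jag1 the nearest at 0.16 (95% interval 0.05 to 0.27, adjusted p = 0.0609), the 1 member with an unadjusted p under 0.05. Notch3 was lower with C1 (log2 -0.41, SE 0.10, adjusted p = 0.0475, where 1.43% of all tested genes were called), and Jag1 was higher with C2 (0.20, SE 0.05, adjusted p = 0.0318, where 3.87% were called). Both calls were lost in most fits that left out 1 library, up to an adjusted p of 0.226 for Notch3 and 0.264 for Jag1. With C1-C2, 0 members were called (0.437% of all tested genes, and 1 member at an unadjusted p under 0.05). Notch4 with C2 was called only in alternatives: without the low-count filter (-0.47, adjusted p = 0.00521) and with replicate blocks (-0.48, 0.0268, or -0.47, 0.032 within treatments). The same alternatives called Notch2 with C1-C2 (0.21, adjusted p = 0.00166, 0.0346 and 0.0429), as did a fit of only the libraries compared (0.22, 0.0406). DESeq2 and the GC and length trend's removal called neither.

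Between mutant and wild-type NIPBL, 0 members were called with C1, C2 or C1-C2, where 9.66%, 12.9% and 4.86% of all tested genes were. At an unadjusted p under 0.05 there were 3, 0 and 0 members. The largest of these differences was that of Jag2 with C1, at -0.51 (95% interval -0.86 to -0.16, adjusted p = 0.0605, or 0.0423 with the GC and length trend removed). Wild-type NIPBL with IPTG against empty vector without IPTG gave 4 called members, where 16.6% of all tested genes were called, 7.23% higher and 9.36% lower. Notch3 (0.65) and Notch4 (0.75) were higher, and Lfng (-0.50) and Jag1 (-0.21) lower, so the direction of these 4 genes was that of the knockdown in dexamethasone. Both comparisons use the same libraries without IPTG in dexamethasone, so the shared direction is no independent result. In ethanol, Notch3 was at 17.3 and 21.7 CPM with wild-type NIPBL, overlapping empty vector with IPTG (18.9 and 25.5 CPM) and above both libraries without IPTG (10.6 and 12.3 CPM).

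The other genes of the pathway were read from a list of 45, of which 35 passed the filter. Beside the members Dll1 and Hey1, those not tested were mostly ligands and targets: Dll3, Dll4 and Dlk1, the targets Hes5 and Hey2 (0 counts), Heyl and Nrarp (2 counts each in all libraries together), and also Mfng, Aph1c and Dtx1. With the knockdown in ethanol 3 of the 35 were higher and 2 lower, 14.3% in all beside 13.4% of all tested genes. Rbpj, the DNA-binding partner of the receptors, fell from a mean of 146 to 99.2 CPM (log2 -0.56, SE 0.07, adjusted p = 7.38e-06), and Furin, the protease that cuts the receptors on their way to the surface, rose from 113 to 162 CPM (log2 0.52, SE 0.06, adjusted p = 2.34e-06). In dexamethasone 5 were higher and 4 lower, 25.7% beside 16.9% of all tested genes, with Rbpj at -0.58 and Furin at 0.35. Dlk2, a membrane protein related to the Delta-like ligands, had means of 30.0 CPM in ethanol and 69.96 CPM in dexamethasone without IPTG, and its knockdown changes were -0.25 and -0.68.

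With dexamethasone and intact NIPBL, 14 of the 35 pathway genes were higher and 6 lower, 57.1% beside 38% of all tested genes. The alternative fits were read for members only. Whether the calls of these pathway genes hold with the GC and length trend removed, or with a library left out, was not tested. Dlk2 (1.22), Furin (1.09), the secretase subunit Psenen (0.80), the Hes family gene Hes6 (0.73) and the co-repressor Spen (0.55) were higher, and Rbpj (-0.87) lower. Dlk2 was the 1 gene of the 35 with a called difference of responses with the knockdown, at -0.43 (SE 0.09, adjusted p = 0.0356). Averaged over treatments, Rbpj was 0.36 higher with wild-type NIPBL than with empty vector and IPTG (SE 0.05, adjusted p = 7.19e-05). Spen (0.16) was also higher there, and Furin (-0.22) and the Notch inhibitor Numbl (-0.15) were lower. Against wild-type NIPBL, Rbpj was lower with C1 (-0.36, adjusted p = 5.25e-05), C2 (-0.24, adjusted p = 0.00343) and C1-C2 (-0.28, adjusted p = 0.00133). Maml3, a co-activator of the receptors, was lower with C1 (-0.19) and C2 (-0.20), and Furin was higher with C1-C2 (0.16).

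Among members, Lfng and Jag1 had the most alike pattern over the 12 groups, with a Pearson correlation of log2 group means of 0.950 (12 groups, which share the 2 treatments and the spread between library blocks). Of 10806 genes with a mean of at least 1 CPM, those most like Lfng by the same measure were Cebpd (0.985), Tmem201 (0.977) and Tars2 (0.975). Those most like Notch4, the member of widest range, were Tns1, Ampd3 and Fbxw4 (0.992 each). These correlations describe 12 group means and carry no test.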

How the data were processed

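The deposited table holds raw counts per gene for 24 libraries made with a stranded total RNA kit. The submitters' processing notes name bcl2fastq 2.20 and cutadapt 1.18 for the reads, STAR 2.7.0f and the build mm10 for alignment, and featureCounts of Subread 2.0.3 for counting. The strand setting and annotation are not given in the sources used here. The authors deposited whole-number counts, and all 55341 gene names are in GENCODE vM21, which supplied coordinates, length and GC content. Promoter sequences are RefSeq's (GRCm38.p6).

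Counts were tested with edgeR 4.0.16 (R 4.3.3; quasi-likelihood test, robust, TMM factors, 1 mean for each of 12 groups, 12 residual degrees of freedom). The filter of edgeR kept 16934 genes, and p-values were adjusted over all of them by the method of Benjamini and Hochberg, with a threshold of 0.05. SE and 95% intervals come from the same fit, which pools the spread of all groups. The groups follow the labels' titles, and the design text calls the 2 samples of a group biological replicates. There were 21 comparisons in the plan and 8 added after values were seen. The members, the list of pathway genes, the marker lists and the comparisons were chosen with earlier results of these data known. All 10 members are named, and up to 6 other pathway genes a comparison by largest change among those called with a mean of at least 1 CPM and groups that do not overlap. The fit was tested on simulated counts. Alternatives were RLE factors, other low-count filters, a replicate block, DESeq2 1.42.0, fits restricted to the groups of a comparison, leaving out each library, leaving out or moving the library whose labels disagree, a fit without the 2 most abundant genes, and a spline trend (4 degrees of freedom) with GC content and length removed.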

Additional observations from a re-analysis of the deposited data

Results flagged for a closer look

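The dexamethasone responses listed here differed from that of empty-vector cells without IPTG by a test of the difference itself (edgeR, adjusted p under 0.05), given as the log2 response with IPTG minus that without. With empty vector and IPTG the differences were -0.80 for Lfng, -0.78 for Notch1 and -0.55 for Jag1. With C1 they were -0.96 for Lfng, -0.76 for Notch1 and -0.55 for Jag1, with C2 -0.73, -0.61 and -0.54, and with C1-C2 -0.75 for Lfng and -0.49 for Jag1. Of all tested genes, 0.171% were called with empty vector, 0.218% with C1, 0.13% with C2 and 0.183% with C1-C2. With 1 library left out, the call of Jag1 with empty vector and IPTG was lost in all 8 fits, and the number of members called fell to as low as 0 with C2 and with C1-C2. All 11 differences share the 4 libraries without IPTG, so they are not independent of each other. No group of these data has the 4 samples needed to look for a library that stands apart, since each group holds 2.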

How the results depend on the processing

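No called value of a member changed direction under any alternative, and 199 of the 3966 values did so without being called before or after. Leaving out each library in turn kept the side of the threshold in 1393 values, lost a call in 75 and gained 1 in 4. The other alternatives kept it in 2403, lost a call in 44 and gained 1 in 47. The counts of called members that moved by more than 1.5 times were as follows.

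With RLE factors, 0 members were called in C1 against empty vector with IPTG. With no filter, the count was 3 in C2 against empty vector, 1 in C1-C2 against empty vector, 1 in C1 against wild-type NIPBL, 1 in each of the differences of responses of wild-type NIPBL against empty vector and C1 against wild-type NIPBL, 2 in that of wild-type NIPBL against empty vector without IPTG, and 2 (C1) and 1 (C1-C2) against empty vector in dexamethasone. With the strict filter of 5 CPM, which drops Jag2 and Hes1 from the test, the response had 3 (wild-type NIPBL) and 4 (C1) members, wild-type NIPBL against empty vector 1, and the C1-C2 difference from the group without IPTG 1. With the GC and length trend removed, the response without IPTG had 4 members, C1 against wild-type NIPBL 1 and the C1-C2 difference 1. Fits of only the libraries compared gave 0 for C1, 0 for C2 and 1 for C1-C2 against empty vector, and 2 for C1-C2 in dexamethasone. DESeq2 gave 1 for the difference of wild-type NIPBL from the group without IPTG (Lfng, -0.59, adjusted p = 0.0124) and 1 for C1-C2 in dexamethasone.

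Replicate numbers are shared by groups, and the titles do not tie them to a day or culture. Deviations of same-numbered libraries correlated at -0.10 to 0.40 between ethanol groups (median 0.26) and -0.32 to 0.46 between dexamethasone groups (median 0.055). Between an ethanol and a dexamethasone group they correlated at -0.19 to 0.55 (median 0.16). Some spread may thus be shared by replicate number, and the main fit has no replicate block. With a replicate block, across or within treatments, the count was 1 in wild-type NIPBL, 2 in C2 and 1 in C1-C2 against empty vector, 1 in C1 against wild-type NIPBL, 1 in the difference of responses of wild-type NIPBL from the group without IPTG, and 1 in C1-C2 in dexamethasone. Without the library with disagreeing labels, C1 against empty vector had 0 and the C1-C2 difference 0. With that library moved to dexamethasone, the count was 0 in the C1-C2 response, 0 (C1) and 0 (C2) against empty vector, 2 in wild-type NIPBL against the group without IPTG, 1 in the difference with the knockdown (Notch1), 1 (C1), 0 (C2) and 0 (C1-C2) in the other differences from that group, and 0 in wild-type NIPBL in dexamethasone. The cause of these moves was not tested.

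With 1 library left out, the count ranged from 2 to 3 in the knockdown in ethanol, 3 to 4 in the knockdown in dexamethasone, 2 in each such fit of the difference with the knockdown, 0 to 3 (C2) and 0 to 1 (C1-C2) in the differences from the group without IPTG, 0 to 1 against empty vector for C1, C2 and, in dexamethasone, wild-type NIPBL, and 0 to 1 in C1 against wild-type NIPBL and in the C2 difference from it. Jag2 had 31 to 144 counts a library, Hes1 67 to 198 and Notch4 in ethanol 27 to 97, which limits their precision.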
